A study of Mus musculus with 3 samples.

Results

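10 regulators of cell survival and apoptosis were followed among the 31053 genes of a single-cell RNA series of mouse blood. They are Bcl2, Bcl2l1, Bcl2l11, Bcl2a1b, Mcl1, Bax, Bbc3, Fas, Cflar and Bid, taken by gene symbol, and each symbol matched 1 gene. Leukocytes of C57/BL6J mice were studied in a control group at 0 h (Con), after 24 h of sleep deprivation (SD24h) and after 48 h (SD48h). The labels name blood as the tissue and leukocytes as the cell type. Per the labels, each group was 1 library of leukocytes pooled in equal amount from 3 mice after red cell lysis. A sleep restriction condition that the series text names was not analysed here. Cell barcodes carry the endings 1, 2 and 3, which the labels do not link to Con, SD24h or SD48h. The endings are therefore called library 1, 2 and 3, none is taken as the control, no effect of sleep deprivation was estimated and no p-value is given. Where 3 values follow each other, they are those of libraries 1, 2 and 3 in that order.

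Apoptosis through mitochondria is set off when Bax or its relative Bak1 opens the outer mitochondrial membrane. Bcl2, Mcl1, Bcl2l1 (BCL-XL) and the A1 proteins encoded by the Bcl2a1 genes hold Bax and Bak1 in check, and the BH3-only proteins Bcl2l11 (BIM), Bbc3 (PUMA) and Bid oppose these guardians or activate Bax directly. The death receptor Fas starts a second route through caspase-8, which Cflar (c-FLIP) restrains and which Bid links to the mitochondria. Neutrophils are short-lived cells known to depend on Mcl1, while resting lymphocytes are known for their use of Bcl2.

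Values are UMIs (unique molecular identifiers, that is counted RNA molecules) summed over the cells of a class and library, expressed per 1000000 UMIs of the same sum (CPM). After filtering, 6695, 5619 and 5438 cells were kept, and library totals before filtering ranged from 30114546 to 40807434 UMIs. Cells were clustered without the 10 genes and without 63 other apoptosis genes, and classes were named from RNA markers only, hence the ending "-like". There were 541, 3138 and 1968 neutrophil-like cells, 414, 401 and 478 monocyte-like cells, 3806, 1379 and 1907 B-like cells, 1211, 518 and 790 T-like cells, and 291, 80 and 154 NK-like cells. The neutrophil-like cells of library 1 came, for 530 of 541 cells, from 1 cluster led by Cd101 and Jaml. That cluster met 5 of the 18 neutrophil markers, whereas the clusters of libraries 2 and 3 met 10 to 16. CPM are relative: S100a8 and S100a9 together took 12.5%, 26.4% and 31.2% of the UMIs of neutrophil-like cells. TMM, a scaling by trimmed mean ratios between the sums, moved the log2 values of neutrophil-like cells by 0.16, 0.90 and 1.06, and those of the other classes by between -0.49 and 0.08. Between the libraries, 61 barcode sequences were shared by a pair of them. Intervals in brackets are exact 95% intervals and reflect counting error alone. Mice were pooled, so no spread between them is known.

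The promoters of 3 genes with their highest or lowest level in neutrophil-like cells are shown first, because neutrophil-like cells stood apart in them in all 3 libraries, as the 250 bases before the RefSeq transcription start (GRCm38.p6), 5′ to 3′ on the gene's own strand. Mcl1 (chr3:95658471-95658720, plus strand) and Fas (chr19:34290409-34290658, plus strand) had their highest level in neutrophil-like cells. Bcl2 (chr1:106714291-106714540, minus strand) had its lowest level there. Bax, which was also lowest there, is not shown. Capitals mark matches, on either strand, to 11 motifs.
Mcl1: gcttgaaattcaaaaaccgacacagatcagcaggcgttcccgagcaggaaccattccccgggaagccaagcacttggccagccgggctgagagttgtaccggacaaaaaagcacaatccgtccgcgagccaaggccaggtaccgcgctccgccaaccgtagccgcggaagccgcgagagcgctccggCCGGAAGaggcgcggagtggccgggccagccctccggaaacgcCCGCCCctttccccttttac
Fas: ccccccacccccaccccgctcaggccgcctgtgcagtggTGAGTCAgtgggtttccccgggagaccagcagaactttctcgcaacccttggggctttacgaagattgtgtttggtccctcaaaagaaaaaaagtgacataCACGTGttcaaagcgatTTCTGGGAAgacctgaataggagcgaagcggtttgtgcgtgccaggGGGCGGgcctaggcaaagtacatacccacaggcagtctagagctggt
Bcl2: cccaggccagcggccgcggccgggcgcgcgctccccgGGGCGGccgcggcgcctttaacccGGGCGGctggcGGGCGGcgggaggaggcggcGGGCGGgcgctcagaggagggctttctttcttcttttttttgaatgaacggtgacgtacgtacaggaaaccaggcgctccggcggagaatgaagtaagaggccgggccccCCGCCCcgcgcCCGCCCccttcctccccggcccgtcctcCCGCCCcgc

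Among the motifs searched, the TATA box was read as TATAAA, and the CCAAT box by the letters of its name. The GC box was read as GGGCGG, and the E-box as CACGTG. The cyclic AMP response element was read as TGACGTCA, and the AP-1 element as TGACTCA. The STAT element was read as TTCNNNGAA, and the GATA element as AGATAA. The ETS core was read as CCGGAAG, the RUNX element as TGTGGT, and the p53 half-site was searched by its consensus. The Bcl2 window held 7 GC boxes that do not overlap, and no other motif of the 11. Its bases were 74.8% G or C, against a median of 52.4% over all windows. The Mcl1 window held 1 GC box and 1 ETS core, at -63 to -57 from the start. The Fas window held 1 GC box, 1 E-box, 1 AP-1 element and 1 STAT element. Of 32851 RefSeq windows of this length, 32.7% held at least 1 GC box, 6.91% an ETS core, 6.02% an E-box, 4.46% an AP-1 element and 7.02% a STAT element. A match describes the letters only. All 10 genes matched at least 1 window of the table.

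Among the guardians, Mcl1 was highest and Bcl2 lowest in neutrophil-like cells in all 3 libraries. Mcl1, a short-lived anti-apoptotic protein, had 1591, 2114 and 1742 CPM in neutrophil-like cells, against 638, 789 and 639 CPM in the monocyte-like and 473, 466 and 463 CPM in the B-like class. NK-like cells had 291, 273 and 248 CPM, while T-like cells had 204, 257 and 246 CPM. In each library neutrophil-like cells were 2.50, 2.68 and 2.72 times the next class, and the intervals of these ratios lay above 1. T-like cells were below NK-like cells in library 1, and the intervals of both overlapped in libraries 2 and 3. Bcl2, the founding member of the family, had 350, 405 and 463 CPM in T-like cells, 283, 422 and 509 CPM in NK-like cells, 175, 238 and 245 CPM in B-like cells and 85.9, 22.2 and 43.6 CPM in monocyte-like cells, against 13.5, 4.31 and 5.74 CPM in neutrophil-like cells. The neutrophil values rested on 21, 47 and 63 UMIs. T-like and NK-like cells exchanged places between the libraries: T-like cells were higher in library 1 and NK-like cells in libraries 2 and 3, where the interval of their ratio included 1.

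**Figure D1:**
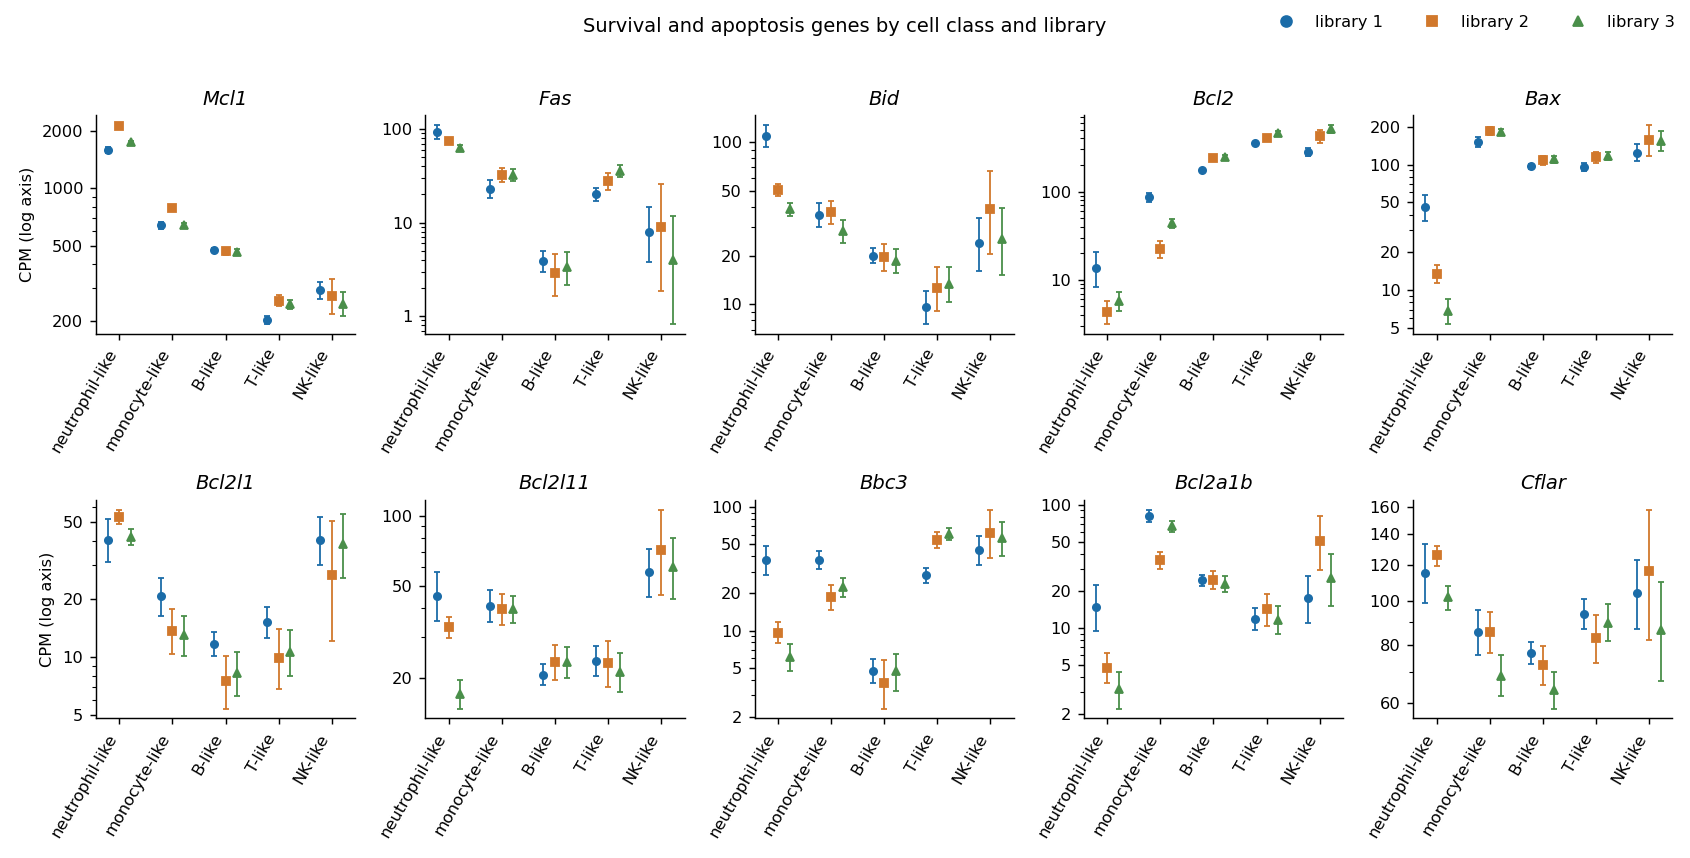
CPM (log axis) of the 10 genes in each cell class, with 1 point per library and exact 95% Poisson intervals. Neutrophil-like cells lie at the top for Mcl1 and Fas and at the bottom for Bcl2 and Bax in each library.

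The ratio of Bcl2 to Mcl1 UMIs does not depend on the total used for scaling. In T-like cells it was 1.72, 1.58 and 1.88, in NK-like cells 0.973, 1.54 and 2.05, in B-like cells 0.369, 0.512 and 0.529, in monocyte-like cells 0.135, 0.0282 and 0.0681, and in neutrophil-like cells 0.00850, 0.00204 and 0.00329. Lymphoid and myeloid classes did not overlap in any library, and neutrophil-like cells were lowest throughout. The neutrophil value of library 1 moved with the handling of the cells: Bcl2 there stood between 5.84 and 28.1 CPM over the alternatives tried.

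**Figure D2:**
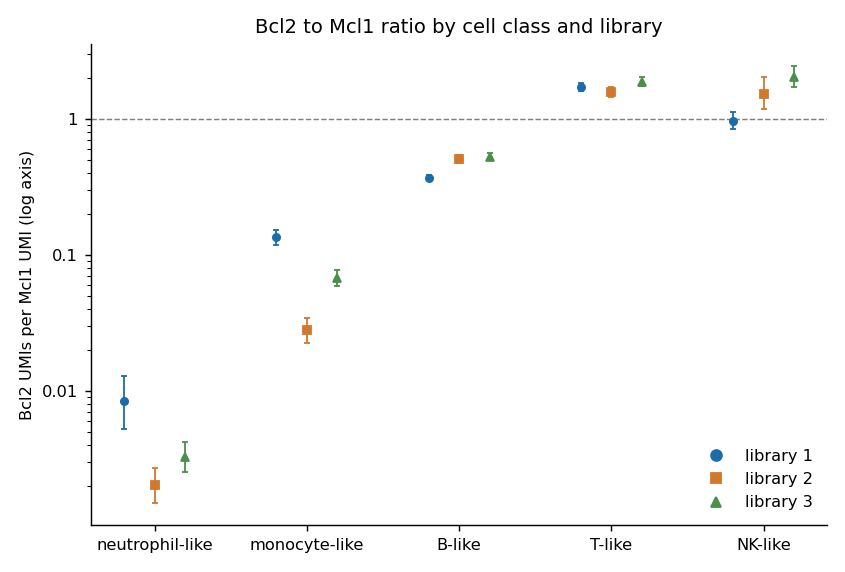
Bcl2 UMIs per Mcl1 UMI (log axis) by cell class, with 1 point per library and exact 95% intervals. The dashed line marks 1; T-like cells lie above it in all 3 libraries and neutrophil-like cells at or under 0.00850.

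Shares of cells pointed the same way once depth was made equal. Thinned to 1000 UMIs per cell, 77.0%, 86.3% and 82.1% of neutrophil-like cells held an Mcl1 UMI, against 18.4%, 23.9% and 21.8% of T-like cells. Unthinned, the shares were 96.3%, 98.4% and 98.7% in neutrophil-like and 68.9%, 76.4% and 75.1% in T-like cells. For Bcl2 the thinned shares were 26.8%, 29.1% and 30.9% of T-like cells against 0.565%, 0.233% and 0.419% of neutrophil-like cells, where the thinning left out 10, 128 and 59 shallower neutrophil-like cells and 10, 3 and 6 T-like cells. Unthinned they were 65.5%, 72.6% and 74.9% of T-like cells against 2.77%, 1.12% and 2.29% of neutrophil-like cells. The B cell gene Cd79a, which neutrophils should lack, stood in neutrophil-like cells at 2.02%, 0.277% and 0.279% of its level in B-like cells, highest in library 1. The part of such RNA in the Bcl2 value was not tested.

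Bcl2l1, which keeps red cell precursors and platelets alive, had 40.6, 53.6 and 42.0 CPM in neutrophil-like cells and 40.5, 26.7 and 38.6 CPM in NK-like cells. In monocyte-like, T-like and B-like cells it ranged from 7.52 to 20.7 CPM. It was higher outside the 5 classes. Red-cell-like cells, with 69.1% to 86.4% of their UMIs from haemoglobin genes, held 66.7, 97.9 and 105 CPM of Bcl2l1. A cluster that met the B markers but was led by platelet genes, and was left unnamed, held 63.2 CPM in library 1.

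In B-like cells Bcl2l1 moved with platelet RNA. B-like cells with no UMI of 6 platelet genes (the platelet markers without Pf4 and Ppbp) had 4.72, 4.23 and 3.38 CPM, those with 1 or 2 such UMIs had 5.45, 6.23 and 6.86 CPM, and those with at least 3 had 16.6, 15.4 and 16.9 CPM. The lowest and the highest bin did not overlap in their intervals in any library. In neutrophil-like cells of libraries 2 and 3 the level was 46.4 and 37.5 CPM with no platelet UMI and 62.7 and 46.3 CPM with at least 3, so cells with no platelet UMI also held the gene. In T-like cells it was 11.6, 5.60 and 6.84 CPM with none and 18.2, 13.6 and 18.8 CPM with at least 3, and the intervals of these bins overlapped in libraries 1 and 2. The platelet bins were chosen after the data were seen. The Fcer2a-led cluster of B-like cells, with 1722, 223 and 341 cells, had 17.9, 20.5 and 26.1 CPM of Bcl2l1. The Fcmr-led cluster had 5.41, 4.01 and 4.84 CPM. With doublets kept, or with the apoptosis genes kept in the clustering, a cluster with Fcer2a among its leading genes was led by platelet genes. It was left unnamed there. The part of platelet RNA in this cluster difference was not tested.

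**Figure D3:**
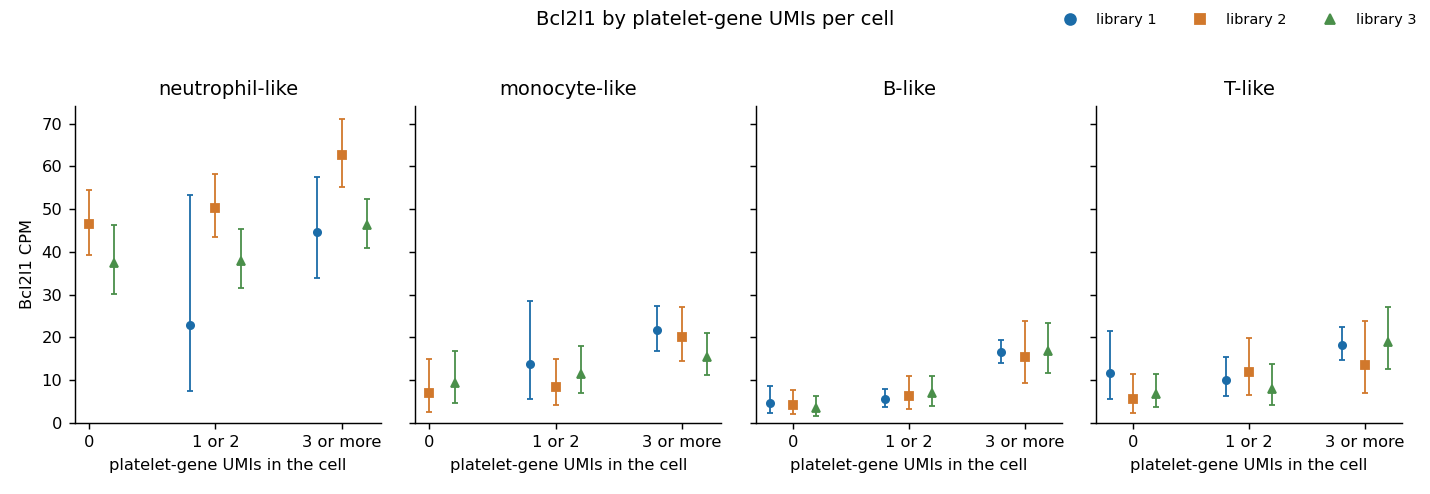
Bcl2l1 CPM in cells with 0, 1 or 2, and at least 3 UMIs of 6 platelet genes, for 4 classes, with 1 point per library (bins of at least 50 cells) and exact 95% Poisson intervals. In B-like cells the level is between 3.38 and 4.72 CPM at 0 platelet UMIs and between 15.4 and 16.9 CPM at 3 or more.

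Bcl2a1b encodes A1, an anti-apoptotic protein induced in activated leukocytes. The mouse genome holds near-identical copies of it, so the gene a read belongs to can be uncertain. The start of the coding sequence is shown for the 3 copies counted here (GRCm38, GENCODE transcripts), with capitals at the positions where the copies differ.
Bcl2a1b (chr9:89199360-89199479, plus strand): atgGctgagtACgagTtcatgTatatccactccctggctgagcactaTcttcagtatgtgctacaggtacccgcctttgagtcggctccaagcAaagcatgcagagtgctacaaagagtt
Bcl2a1a (chr9:88957051-88957170, plus strand): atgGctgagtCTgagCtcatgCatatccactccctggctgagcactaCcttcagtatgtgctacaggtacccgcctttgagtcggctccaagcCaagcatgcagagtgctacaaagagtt
Bcl2a1d (chr9:88731600-88731719, minus strand): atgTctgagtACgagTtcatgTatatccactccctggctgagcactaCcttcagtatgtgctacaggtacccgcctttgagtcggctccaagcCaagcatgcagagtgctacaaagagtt

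Over 516 coding bases Bcl2a1b differed from Bcl2a1d at 6 positions (98.8% identity) and from Bcl2a1a at 11 (97.9%). In the first 147 bases after the stop codon, the end that 3′ libraries read, it differed from them at 0 and 1 positions. By class, Bcl2a1b had 81.3, 35.4 and 66.8 CPM in monocyte-like cells and 24.3, 24.5 and 22.8 CPM in B-like cells. NK-like cells had 17.5, 50.5 and 25.3 CPM, T-like cells 11.9, 14.2 and 11.6 CPM, and neutrophil-like cells 14.8, 4.77 and 3.19 CPM. The NK value of library 2 rested on 17 UMIs, and its ratio to monocyte-like cells, 1.43, had an interval that reached down to 0.809. In B-like cells the counts parted Bcl2a1b from Bcl2a1a, with 408, 137 and 171 UMIs against 0, 3 and 0. Bcl2a1d, the copy closest to Bcl2a1b, had 165, 45 and 62 UMIs there. In T-like cells Bcl2a1b had 91, 47 and 60 UMIs, Bcl2a1a 1, 0 and 0, and Bcl2a1d 15, 4 and 14. How many reads of Bcl2a1b and Bcl2a1d were exchanged was not tested.

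The monocyte-like level was an average of clusters that lay far apart. In the cluster led by Ear2, Ace and Cd300e, genes of patrolling (non-classical) monocytes, Bcl2a1b had 264, 242 and 221 CPM, against 4.25, 14.6 and 7.35 CPM in the cluster led by Fn1, Vcan and Ccr2, genes of classical monocytes. Its ratio was 62.2 (34.2 to 126), 16.6 (11.8 to 23.6) and 30.1 (20.6 to 45.7). The copies did likewise, but the gene a read belongs to can be uncertain, so they are not separate evidence. Bcl2a1d had 263, 250 and 159 CPM in the Ace-led against 6.57, 12.2 and 9.38 CPM in the Fn1-led cluster. For Bcl2a1a it was 99.0, 129 and 91.6 CPM against 2.70, 4.42 and 5.07 CPM.

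Bcl2 showed the same division, with 239, 142 and 132 CPM in the Ace-led against 21.2, 10.1 and 9.63 CPM in the Fn1-led cluster, at ratios of 11.3 (8.40 to 15.4), 14.0 (9.09 to 21.6) and 13.7 (9.63 to 19.9). The BH3-only gene Bcl2l11 went the other way, with 20.2, 10.3 and 23.7 CPM in the Ace-led against 49.8, 42.4 and 45.6 CPM in the Fn1-led cluster. Mcl1 had 673, 793 and 753 CPM in the Ace-led and 623, 788 and 596 CPM in the Fn1-led cluster, a difference of less than 1.5 times in each library. Bbc3 had 65.1, 33.5 and 46.1 CPM against 25.5, 17.2 and 13.4 CPM, where the interval of library 2 reached 0.986. Library 2 held 63 cells of the Ace-led cluster, under the 100 set for cluster values. With a ratio of at least 1.5 and an interval on 1 side of 1 in all 3 libraries, 2 of the 10 genes were higher in the Ace-led cluster, beside 7.23% of all 10360 genes measured, and 1 was lower, beside 2.46%. The pairs of clusters compared were chosen after the values were seen.

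**Figure D4:**
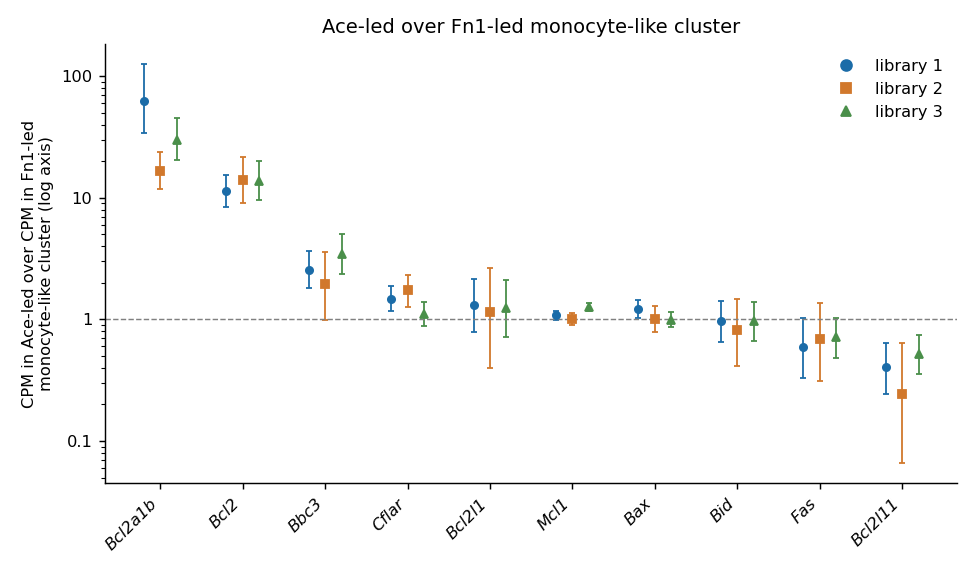
Ratio (log axis) of CPM in the Ace-led to CPM in the Fn1-led monocyte-like cluster for the 10 genes, with 1 point per library and exact 95% intervals. Bcl2a1b and Bcl2 lie above 10 and Bcl2l11 below 1 in all 3 libraries.

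Bax, the pore-forming protein itself, was lowest in neutrophil-like cells, with 45.7, 13.5 and 6.83 CPM (71, 147 and 75 UMIs) there. Monocyte-like cells had 152, 186 and 182 CPM, NK-like cells 125, 157 and 154 CPM, B-like cells 96.7, 108 and 111 CPM and T-like cells 95.4, 115 and 118 CPM. Outside neutrophil-like cells the gene thus kept within 95.4 to 186 CPM. The ratio of Bax to Mcl1 UMIs was 0.0287, 0.00638 and 0.00392 in neutrophil-like cells and at least 0.204 in every other class and library. These ratios were added after the data were seen.

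Bid, which caspase-8 cleaves to carry a death receptor signal to mitochondria, had 109, 50.6 and 38.5 CPM in neutrophil-like cells. It had 35.6, 37.1 and 28.2 CPM in monocyte-like cells and 23.8, 38.6 and 25.3 CPM in the NK-like class. B-like cells, 1.08 times apart between libraries 1 and 3, had 19.5 and 18.5 CPM in libraries 2 and 3. T-like cells had 9.66, 12.7 and 13.4 CPM. Neutrophil-like cells were highest in each library, but in library 2 the interval of the ratio to NK-like cells, on 13 UMIs there, included 1. T-like cells were lowest.

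Bcl2l11 had 57.2, 71.3 and 59.9 CPM in NK-like cells, the highest value of each library, but in library 1 the interval of the ratio to the next class included 1. Monocyte-like cells had 41.0, 39.5 and 39.5 CPM and neutrophil-like cells 45.1, 33.2 and 17.1 CPM. B-like and T-like cells lay between 20.7 and 23.7 CPM and did not separate, and in library 3 neutrophil-like cells had the lowest value of the 5 classes. Both orders depended on the scaling. With TMM, Bcl2l11 had 50.4, 61.8 and 35.7 CPM in neutrophil-like and 42.2, 50.7 and 46.1 CPM in NK-like cells. In library 3 T-like and B-like cells then had 22.5 and 21.3 CPM, below neutrophil-like cells. Bbc3, a target of p53, was high in NK-like cells with 45.3, 62.4 and 55.9 CPM and in T-like cells with 28.1, 54.6 and 60.9 CPM, whose order changed between the libraries. Monocyte-like cells had 37.2, 18.7 and 22.5 CPM, neutrophil-like cells 37.4, 9.63 and 6.10 CPM, and B-like cells 4.70, 3.76 and 4.66 CPM.

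Within neutrophil-like cells of libraries 2 and 3, Bcl2l11 stepped down over 3 clusters. It had 46.6 and 48.1 CPM in the cluster led by Clec4n, 26.3 and 28.6 CPM in that led by Mmp8, and 15.6 and 12.7 CPM in that led by Ngp, a granule gene of immature neutrophils. The Clec4n-led cluster was 2.99 (1.87 to 5.08) and 3.79 (2.62 to 5.40) times the Ngp-led one. Bcl2l11 was the 1 gene of the 10 higher in the Clec4n-led than in the Ngp-led cluster by at least 1.5 times in both libraries, beside 13.1% of 8459 genes measured, and 0 of the 10 were lower, beside 1.79%. Between the Clec4n-led and the Mmp8-led cluster Bcl2l11 and Bcl2a1b were higher, beside 5.90% of genes, Bcl2a1b on 2 UMIs in library 3 in the Mmp8-led cluster. Bcl2l11 was also the 1 gene of the 10 higher in the Mmp8-led than in the Ngp-led cluster, beside 1.09% of 8376 genes. S100a8 and S100a9 took 19.5% and 19.4% of the UMIs in the Clec4n-led cluster and 32.3% and 32.8% in the Ngp-led cluster.

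Mcl1 had 2332 and 2222 CPM in the Clec4n-led, 2023 and 2099 CPM in the Mmp8-led and 1750 and 1654 CPM in the Ngp-led cluster, steps of less than 1.5 times. Fas had 82.9 and 83.4 CPM in the Clec4n-led against 59.9 and 58.3 CPM in the Ngp-led cluster. The Cd101-led cluster of library 1 had 46.2 CPM of Bcl2l11, near the Clec4n-led level, with 45.5 CPM of Bax, against 22.5 and 11.8 CPM in the Clec4n-led cluster of libraries 2 and 3, and 1609 CPM of Mcl1.

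**Figure D5:**
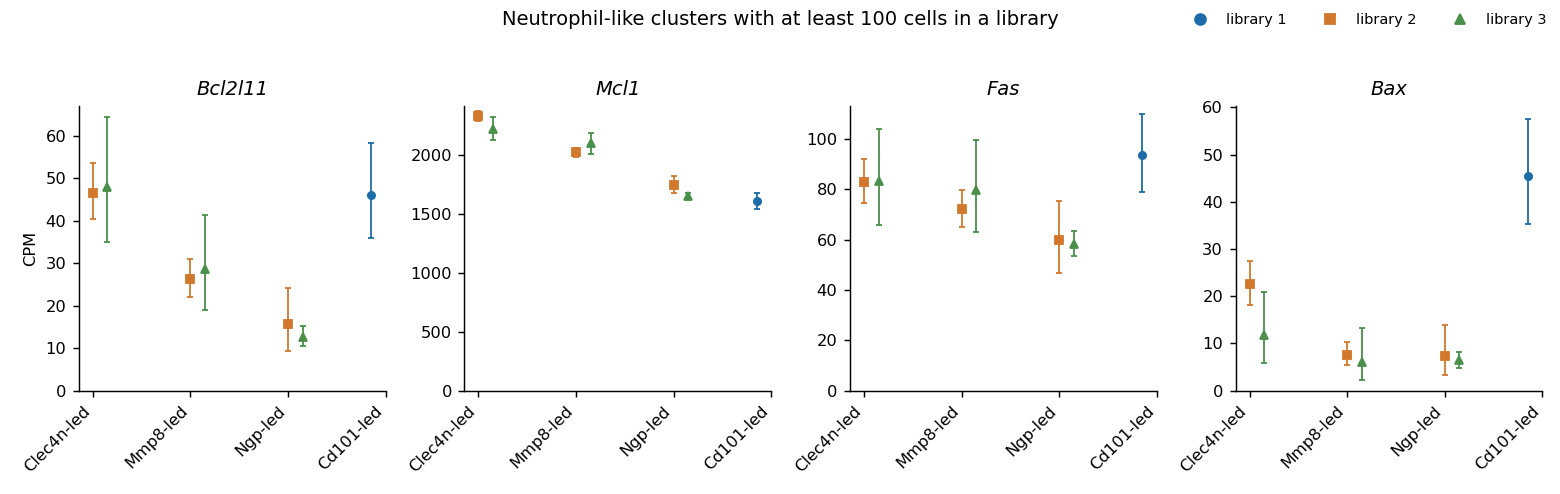
CPM of 4 genes in the neutrophil-like clusters, 1 point per library with at least 100 cells of the cluster and exact 95% Poisson intervals. Bcl2l11 is 46.6 and 48.1 CPM in the Clec4n-led and 15.6 and 12.7 CPM in the Ngp-led cluster of libraries 2 and 3, while the Cd101-led cluster is found in library 1.

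On the receptor route, Fas was highest in neutrophil-like cells, with 93.4, 75.2 and 62.4 CPM, 4.04, 2.32 and 1.74 times the next class with intervals above 1. Monocyte-like cells had 23.1, 32.4 and 32.2 CPM and T-like cells 20.2, 28.0 and 35.9 CPM, which overlapped. B-like cells had 3.87, 2.86 and 3.33 CPM, and NK-like cells 7.94, 8.91 and 3.99 CPM on at most 10 UMIs a library. Thinned to 1000 UMIs, 9.23%, 7.51% and 5.76% of neutrophil-like cells held a Fas UMI, against 0.452%, 0.148% and 0.215% of B-like cells; unthinned these were 22.6%, 21.2% and 27.3% against 1.66%, 1.16% and 1.26%. The ligand Fasl was highest in NK-like cells, at 26.4, 128 and 68.7 times the next class, with lower bounds of 18.3, 47.1 and 35.8. Cflar, the brake on caspase-8, lay between 63.9 and 126 CPM in every class and library.

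Of the 10 genes, 2 had the same highest class in all 3 libraries with intervals above 1, namely Mcl1 and Fas, beside 20.8% of 13147 genes measured. That class was neutrophil-like for both, beside 5.54% of genes. By the mirror rule, which was added later, 3 had a fixed lowest class, Bcl2 and Bax in neutrophil-like cells and Bid in T-like cells, beside 21.7% of genes, with 17.5% lowest in neutrophil-like and 2.49% in T-like cells. With TMM scaling 7 genes had a leading class: Bcl2l1, Cflar and Bid joined Mcl1 and Fas in neutrophil-like cells, Bcl2 led in T-like and Bax in monocyte-like cells. That scaling raised all neutrophil-like values, by log2 0.16, 0.90 and 1.06. The share of all genes with a leading class was not counted under it, so the rise is not read as a trait of the 10 genes. Bcl2 and Bax stayed lowest in neutrophil-like cells under each of the 8 alternatives run, while the call of Bid in T-like cells was lost under 5 of them.

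The 10 genes differed between the libraries most in neutrophil-like cells. There 6 of them (Bcl2, Bcl2l11, Bcl2a1b, Bax, Bbc3 and Bid) stood apart, by at least 1.5 times from the highest to the lowest library with an interval above 1, beside 61.7% of all 9235 genes measured. All 6 were highest in library 1, which held for 49.6% of genes, so the members' count is near that of genes at large. The widest were Bax at 6.70 times (4.77 to 9.39) and Bbc3 at 6.12 times (4.23 to 8.83). With TMM scaling 9 of the 10 stood apart, beside 49.2% of genes. It left Bax at 3.59 and Bbc3 at 3.28 times, moved the highest library of Bcl2l11 to library 2, and widened Mcl1 to 2.21 times with library 2 highest. Neutrophil-like cells of library 1 also held more RNA of other cells: platelet markers summed to 9000, 2705 and 2450 CPM there, with all 8 detected, and B markers to 469, 75.7 and 66.7 CPM, with all 16 detected. Their part in these differences was not tested. The Ngp-led cluster held 2, 265 and 1385 cells of libraries 1, 2 and 3. Without the Ngp-led cluster, Bcl2l11 had 45.4, 35.4 and 38.1 CPM and no longer stood apart. Bcl2a1b had 14.9, 4.75 and 8.36 CPM there, with library 2 in place of library 3 as the lowest. The Cd101-led cluster held 530, 25 and 0 cells of libraries 1, 2 and 3, so a difference of library 1 from the others is also one between clusters. Fewer cells of a state and less RNA per cell cannot be told apart in such sums.

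In monocyte-like cells 4 of the 10 stood apart, beside 27.1% of genes, and all were highest in library 1, beside 14.5%: Bcl2 at 3.87 times, Bcl2a1b at 2.29, Bbc3 at 1.99 and Bcl2l1 at 1.59. The Ace-led cluster made up 43.0%, 15.7% and 41.6% of the class in libraries 1, 2 and 3, and library 2 was lowest for Bcl2, Bcl2a1b and Bbc3. Within the Ace-led cluster Bcl2a1b was 264, 242 and 221 CPM, less than 1.5 times apart. Bcl2 there was 239, 142 and 132 CPM, with library 1 highest again. In this class B markers summed to 566, 84.8 and 77.4 CPM, and platelet markers to 3125, 1144 and 1068 CPM. Their part in these differences was not tested.

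In T-like cells 3 stood apart, beside 13.2% of genes. Bbc3 was lowest in library 1, with 28.1 CPM against 54.6 and 60.9 CPM, at 2.17 times (1.82 to 2.59), and so was Fas, at 1.77 times (1.42 to 2.21). Bcl2l1 was highest in library 1 at 1.53 times (1.04 to 2.33), and with the strict cell filter its log2 ratio of library 1 to library 2 was -0.76. T-like cells with at least 3 platelet UMIs were 719 of 1211, 131 of 518 and 220 of 790, and their part in this difference was not tested. Bbc3 had 35.9, 52.2 and 54.2 CPM in the Cd8a-led cluster, against 18.5, 56.7 and 69.8 CPM in the Cd4-led cluster. The Cd8a-led cluster was thus above the Cd4-led one in library 1 and below it in libraries 2 and 3, where the interval of library 2 included 1. None of the 10 genes passed 1.5 times in the same direction in all 3 libraries between these clusters, beside 2.08% of genes higher and 1.04% lower in the Cd8a-led cluster. Fas had 21.2, 29.6 and 35.5 CPM in the Cd8a-led and 19.1, 26.6 and 36.3 CPM in the Cd4-led cluster, which overlapped in every library.

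Bcl2 was lowest in library 1 in all 3 lymphoid classes, at 1.80 times (1.55 to 2.08) between libraries 3 and 1 in NK-like cells, 1.40 times (1.32 to 1.48) in B-like cells and 1.32 times (1.25 to 1.40) in T-like cells. In NK-like cells 2 of 9 measured genes stood apart, Bcl2 and Bcl2a1b, beside 12.7% of genes. In B-like cells 1 of 10 did, Bcl2l1 at 1.56 times, beside 10.1% of genes. With the mitochondrial limit at 20% none of the 10 did. B-like cells with at least 3 platelet UMIs were 2114 of 3806, 296 of 1379 and 489 of 1907. Within that bin Bcl2l1 had 16.6, 15.4 and 16.9 CPM, and with 0 platelet UMIs 4.72, 4.23 and 3.38 CPM. The part of platelet RNA in the library difference was not tested.

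B-like cells also divided by cluster. The cluster that holds Vpreb3, a gene of young B cells, among its leading genes had 706, 618 and 679 CPM of Mcl1 against 412, 450 and 423 CPM in the Fcmr-led cluster, at 1.71 (1.60 to 1.84), 1.37 (1.21 to 1.55) and 1.61 (1.46 to 1.77) times. For Bcl2 it had 110, 175 and 168 CPM against 182, 225 and 267 CPM in the Fcmr-led cluster. Library 2 stayed under 1.5 times for both genes. Bcl2a1b, with 15.5, 13.1 and 11.1 CPM against 24.1, 28.9 and 29.3 CPM, was the 1 gene of the 10 past 1.5 times in all 3 libraries, beside 0.363% of 10199 genes lower in the Vpreb3 cluster; it rested on 34, 7 and 10 UMIs there.

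The pathway list of 63 other apoptosis genes held 55 with at least 20 UMIs, of which 12 had a fixed leading class, close to the 20.8% of all genes. In neutrophil-like cells these were Bnip3, Tnfrsf1a (the TNF receptor), and the stress genes Gadd45a and Gadd45b. In monocyte-like cells they were Bcl2a1a, Bcl2a1d, Htra2, Naip2 and the p53 target Cdkn1a, at 5.53, 15.7 and 5.36 times the next class. In B-like cells they were Birc3, an inhibitor of apoptosis, and Parp1, at 3.09, 3.97 and 4.14 times, and in NK-like cells Fasl.

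Between the libraries, 24 of 45 measured list genes stood apart in neutrophil-like cells, beside 61.7% of all measured genes. In monocyte-like cells 23 of 53 did, beside 27.1%. It was 5 of 50 in B-like cells, beside 10.1%, 4 of 48 in T-like, beside 13.2%, and 4 of 43 in NK-like, beside 12.7%. The median log2 ratio of the highest to the lowest library in neutrophil-like cells was 0.92 for the list, 1.45 for the 10 genes and 1.02 for all measured genes. The list genes named here are the 3 per class, among those measured, with the highest lower bound of the interval of that ratio. By this bound the widest in neutrophil-like cells were the BH3-only genes Pmaip1 (NOXA), at 63.8, 21.8 and 5.19 CPM, and Bmf, at 16.7, 4.50 and 1.09 CPM, and Trp53, at 17.4, 3.49 and 3.92 CPM. In monocyte-like cells they were Bcl2a1d, Naip6 at 20.1, 6.61 and 14.3 CPM, and the pore-forming Bak1 at 70.1, 81.0 and 124 CPM.

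In the lymphoid classes the widest list genes by the same bound were Tnfrsf1a, Pdcd4 and Fadd in B-like cells, Fasl, Birc5 and Bak1 in T-like cells and Birc2, Bcl2a1d and Tnfaip8l2 in NK-like cells. Pdcd4 in B-like and Bak1 in T-like cells did not meet the 1.5-fold rule. Pdcd4 had 139, 202 and 200 CPM in B-like cells and Birc2 129, 71.3 and 62.6 CPM in NK-like cells.

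The genes most like each of the 10 were taken by Pearson correlation of log2(CPM + 1) over the 15 sums of class and library, among 8539 genes with at least 500 UMIs. The 15 sums share libraries and classes, so the values describe likeness only. For Mcl1 they were Osbpl9 (r = 0.986), B4galt3 (0.981) and Fbxl5 (0.974), for Bcl2 Sigirr (0.982), Pdcd4 and Pstk (0.981 each), and for Bax Ndufs7 (0.987), Sumo3 and Eif3a (0.986 each). For Fas they were Mettl9 (0.967), Clip1 and Armc7, for Bcl2l1 Pak2 (r = 0.950), Nbeal2 and Lasp1, and for Bbc3 Arl4c (0.957) and Prkch. For Bcl2l11 they were Cox8a (0.959), 2510039O18Rik and Cdyl, for Bcl2a1b Papd4 (0.955), Rfng and Aup1, and for Bid Arl3 (0.950), Rgs14 and Rsrp1. Cflar had the loosest likeness, with Pak2 (0.874), Stxbp5 and Zfp719.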

How the data were processed

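The deposited values are raw UMI counts per gene and cell in 1 matrix of 22204 barcodes from 3 libraries. Per the file headers it was written by Cell Ranger 6.0.2, and per the submitters' processing notes Trimmomatic 0.39, Cell Ranger 4.0.0, Seurat 3.0 and R 4.0.2 were used with GRCm38. Which Cell Ranger version set the counts is not settled, and the sources used here do not give how the authors called cells. The 10 genes, the marker lists and the 63 other apoptosis genes were chosen with earlier results of these data known.

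The filter asked for a minimum of 200 genes per cell and a mitochondrial share of 10% or less, and the 6% with the highest Scrublet score per library were left out as doublets, because the automatic threshold marked 0.0983% in library 1. Cells were scaled to 10000 UMIs, and 2000 variable genes, 30 components and 15 neighbours gave Leiden clusters at resolution 1 (scanpy 1.11.5). A cluster was named from at least 3 markers and left unnamed where at least 3 platelet genes were among its 10 leading genes. These choices were revised after clusters were seen. The lowest-class rule, the cluster pairs, the Bax ratios, the platelet bins and the red cell values were added after the data were seen.

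UMIs were summed per class and library. A leading class was the highest in all 3 libraries with the exact 95% interval of its ratio to the next above 1. Genes with at least 20 UMIs were counted as measured. TMM scaling used edgeR 4.0.16. For genes at 0 in a sum, a floor of 3 UMIs was used. The named genes are the 10 members and, of the other apoptosis genes, those with a leading class and the 3 with the widest spread over libraries in each class (by the lower interval bound), plus the 3 genes most like each member with at least 500 UMIs, of which 1 gene is not reported here. The calls of a leading class and of libraries standing apart, and the interval of a ratio, were tested on simulated sums. Filtering, clustering and the naming of classes were not part of that test.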

Additional observations from a re-analysis of the deposited data

How the results depend on the processing

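The lowest log2 difference in the Bcl2 to Mcl1 ratio between T-like and neutrophil-like cells was 7.66. It was 9.80 with the strict filter (at least 500 genes, at most 5% mitochondrial UMIs), where library 1, with 21 neutrophil-like cells, was left out. The difference was 6.59 with a mitochondrial limit of 20%, 8.85 with doublets kept and 8.87 with automatic doublet thresholds. Under the strict filter 487 cells of library 1 lay in a cluster led by Cd101, Gp6 and Jaml, which met 3 of 18 neutrophil markers. Platelet genes were among its leading genes, so it was left unnamed. Another cluster, which met 14 of the 18 and held 10, 462 and 414 cells, was left unnamed likewise. With the strict filter 2 genes stood apart in neutrophil-like cells, where libraries 2 and 3 alone were compared. The 6 of the main setting came from 3 libraries and were all highest in library 1, so these counts are not like for like. In B-like cells 3 genes stood apart with the strict filter, against 1, and 0 at the 20% limit. Shares of all genes are not given for these settings. The log2 ratio of Bcl2l1 in T-like cells, library 1 to library 2, was -0.76 with the strict filter. TMM scaling gave 7 genes with a leading class, against 2, and 19 of the other apoptosis genes, against 12. The share of all genes was not counted under that scaling. The 2 libraries farthest apart were also compared as a fixed pair. In neutrophil-like cells this pair no longer stood apart for Bcl2 (libraries 1 and 2) with doublets kept (log2 0.86) or automatic thresholds (1.04), for Bcl2l11 (libraries 1 and 3) with TMM scaling (0.50) or without the Ngp-led cluster (0.25), and for Bcl2a1b (libraries 1 and 3) without that cluster (0.83). Another pair could be wider: Bcl2 with automatic thresholds had 5.84, 2.85 and 5.99 CPM, with library 3 highest. Except for what the alternatives leave out by construction, the cause was not tested. Mcl1 and Fas kept neutrophil-like cells as leading class in every alternative run. Cluster ratios were not computed for monocyte-like cells at resolution 2, nor for neutrophil-like cells with the strict filter or automatic thresholds, where no single cluster matched. No paired analysis was possible because each group is 1 library, no label ties a library to a group and no test between groups was run.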
